A study of Mus musculus with 6 samples.

Results

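The 8 genes Foxa1, Foxa2, Foxa3, Onecut1, Onecut2, Cebpa, Prox1 and Foxo1 encode transcription factors that set up and maintain the hepatocyte. They were taken by symbol from the 46983 rows of a liver count table, and all 8 were among the 16441 genes with enough counts to be tested. The comparison asked whether their transcripts differ when hepatocytes lack AEG-1 (astrocyte elevated gene 1), the protein encoded by Mtdh. Knockout mice (AEG-1DHEP) lacked AEG-1 in hepatocytes only, so the other cells of the liver kept the gene. Controls carried the floxed allele (AEG-1fl/fl) per the series description, although their titles call them wild type. All mice were 12 weeks old, on a C57BL/6 background, fed chow and untreated, and RNA came from whole liver. The driver of the Cre recombinase is not given in the sources used here.

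The labels describe 3 mice per group. Control replicates 1 and 2 held the same value in all 46983 rows. As they differed by less than sampling noise, they were counted as 1 sample. This left 3 knockout and 2 distinct control libraries, with totals between 29557477 and 33685670 counts. Mtdh had 89, 74 and 76 counts in the knockout libraries, against 1529 and 1612 in the control libraries, so each library went with its label. Levels are given as CPM, counts per 1000000 after scaling between libraries. Whole liver holds several cell types, and fewer cells of a type cannot be told apart from less RNA per cell.

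FOXA proteins are forkhead factors known as pioneers: they bind closed chromatin and open liver enhancers for other factors. ONECUT1, also called HNF6, and ONECUT2 bind DNA through a cut domain and a homeodomain and act in hepatocyte and bile duct development. C/EBP-alpha is a leucine zipper factor that maintains metabolic genes of the adult hepatocyte, and PROX1 is a homeobox protein that acts largely as a corepressor in hepatocytes. FOXO1 is a forkhead factor that drives fasting genes and leaves the nucleus when insulin activates AKT, so its transcript level is not a measure of its activity.

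The promoters of Foxa1, Foxa2 and Onecut1 are shown because these 3 transcripts were lowest in knockout replicate 1 and lay above both controls in knockout replicates 2 and 3. They were chosen after their values were seen. Sequences are RefSeq windows of the GRCm38.p6 build, from 250 bases before to 50 bases after an annotated start, written 5′ to 3′ on the strand of the gene. Capitals mark matches, on either strand, to a forkhead motif (TGTTTAC or its reverse complement GTAAACA), an ONECUT motif (ATTGAT or ATCAAT) or a C/EBP motif (TTGCNNAA or TTNNGCAA). The forkhead letters serve for FOXA and FOXO proteins alike, and no printed match overlapped another.
Foxa1, chr12:57546062-57546361, minus strand: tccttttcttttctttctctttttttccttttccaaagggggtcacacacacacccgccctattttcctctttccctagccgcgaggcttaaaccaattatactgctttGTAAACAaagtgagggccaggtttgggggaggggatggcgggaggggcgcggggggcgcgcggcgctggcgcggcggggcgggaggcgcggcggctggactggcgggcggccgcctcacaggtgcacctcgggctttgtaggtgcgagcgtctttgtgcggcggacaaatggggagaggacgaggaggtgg
Foxa2, chr2:148046920-148047219, minus strand: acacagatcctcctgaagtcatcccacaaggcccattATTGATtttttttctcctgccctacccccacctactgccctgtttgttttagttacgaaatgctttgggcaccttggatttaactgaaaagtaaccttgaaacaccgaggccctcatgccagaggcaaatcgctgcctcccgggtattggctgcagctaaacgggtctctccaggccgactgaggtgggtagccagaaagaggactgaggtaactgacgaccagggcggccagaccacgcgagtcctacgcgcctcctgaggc
Onecut1, chr9:74861671-74861970, plus strand: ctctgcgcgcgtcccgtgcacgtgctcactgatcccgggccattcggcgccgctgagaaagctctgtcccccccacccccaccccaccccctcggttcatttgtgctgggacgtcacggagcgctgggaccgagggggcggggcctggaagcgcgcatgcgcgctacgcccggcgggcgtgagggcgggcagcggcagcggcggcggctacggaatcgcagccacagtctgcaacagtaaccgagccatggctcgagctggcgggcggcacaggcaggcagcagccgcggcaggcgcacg

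The Foxa1 window held 1 forkhead match, which began 141 bases upstream of the start. The Foxa2 window held 1 ONECUT match, which began 213 bases upstream. The forkhead letters occurred in 3.65% of 32851 promoter windows of the same length, the ONECUT letters in 7.54% and the C/EBP letters in 10.8%. No match to the 3 motifs was found in the Onecut1 window printed here, in the windows at the other 2 annotated starts of Foxa2, or in the windows of Foxa3, Cebpa, Prox1 and Foxo1. Onecut2 was not searched. A match describes letters in a window and is not evidence of binding.

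None of the 8 transcripts passed the test between knockout and control livers. By edgeR's quasi-likelihood test, two-sided and adjusted over all 16441 genes, 0 of 8 had an adjusted p under 0.05, and 0 of 8 had an unadjusted p under 0.05. DESeq2 and limma-voom also called 0 of 8 at either threshold. Over all genes edgeR and limma-voom each called 0.00608%, edgeR calling Mtdh alone, and DESeq2 called 0.116%. An unadjusted p under 0.05 was found for 3.43% of all genes by edgeR, 3.03% by DESeq2 and 3.29% by limma-voom. Knockout and control libraries overlapped in all 8 transcripts, while 16.9% of all genes did not overlap, 8.16% with the knockout higher and 8.72% with it lower. Of the 8 log2 fold changes, 5 were above 0 and 3 below, with a median of 0.04, beside 0.0090 for all genes. A p above the threshold does not show equal levels, and the 95% intervals below give the sizes these libraries leave possible.

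**Figure D1:**
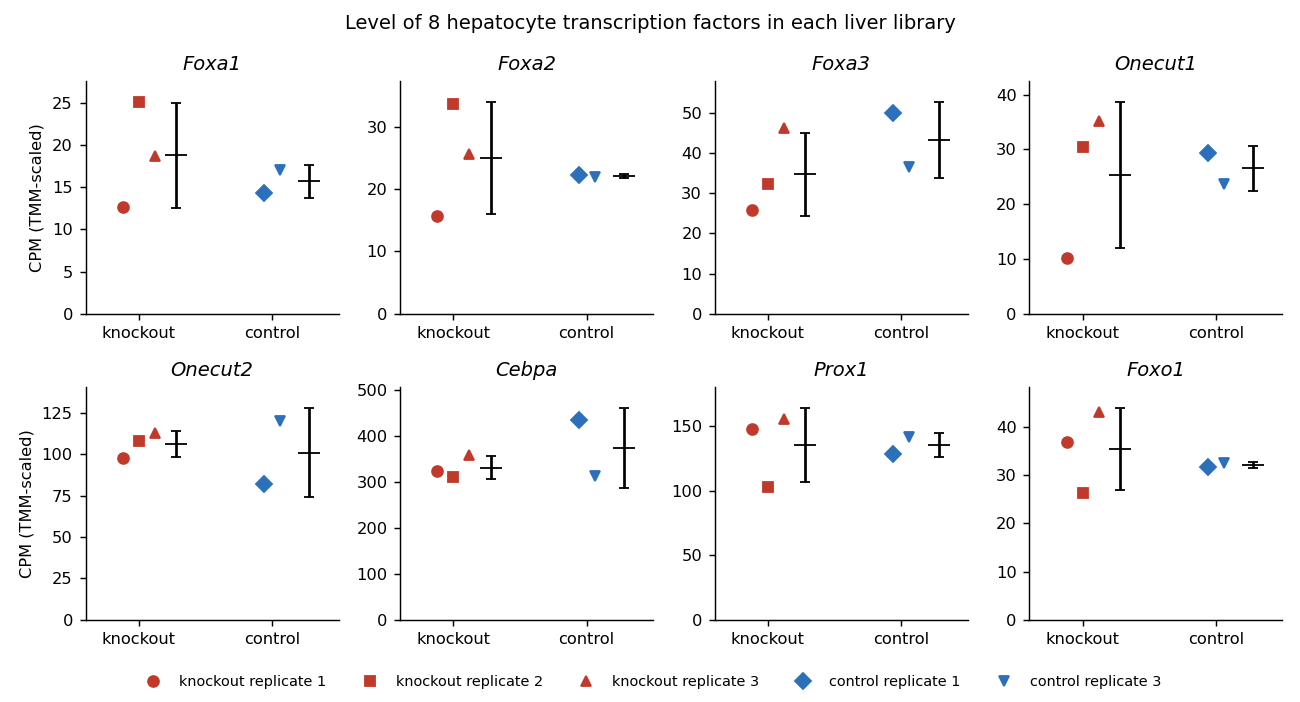
Level of each transcript in CPM (vertical axes, starting at 0) in the 3 knockout (red, left) and 2 distinct control (blue, right) libraries, with the mean and SD in black. The groups overlap in every panel, and knockout replicate 1 has the lowest Onecut1 level, 10.2 CPM.

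Foxa1 (ENSMUSG00000035451, chromosome 12, 57540628 to 57546916) had 12.6, 25.1 and 18.7 CPM in knockout replicates 1, 2 and 3, against 14.3 and 17.1 CPM in control replicates 1 and 3. The knockout libraries lay on both sides of the controls, with replicate 1 below and the other two above. The means were 18.8 ± 6.24 CPM in knockout livers (SD, n = 3) and 15.7 ± 1.99 CPM in control livers (SD, n = 2). The log2 fold change was 0.26 (SE 0.28) with an interval from -0.40 to 0.92, and the edgeR adjusted p was 1. Without knockout replicate 2 the log2 fold change was -0.0033 (SE 0.22), and without knockout replicate 1 it was 0.48 (SE 0.20).

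Foxa2 (ENSMUSG00000037025, chromosome 2, 148042877 to 148046969), the FOXA member also known for its role in bile acid and fasting metabolism, had 15.7, 33.6 and 25.6 CPM in knockout livers, against 22.3 and 21.9 CPM in control livers. The same order held among the knockout libraries as for Foxa1, and the 2 controls were close to each other between them. Foxa2 averaged 25.0 ± 9.01 CPM in knockout livers (SD, n = 3) and 22.1 ± 0.311 CPM in control livers (SD, n = 2). Its log2 fold change was 0.18 (SE 0.29, interval -0.52 to 0.88, edgeR adjusted p 1), and -0.10 without knockout replicate 2.

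Foxa3 (ENSMUSG00000040891, chromosome 7, 19013284 to 19023538), the FOXA member that predominates in adult liver, had 25.8, 32.3 and 46.1 CPM in knockout livers, against 49.9 and 36.6 CPM in control livers. Knockout replicates 1 and 2 lay below both controls and replicate 3 between them. Its log2 fold change of -0.32 (SE 0.26) was the farthest from 0 of the 8, with an interval from -0.93 to 0.30 and an edgeR adjusted p of 1. It was below 0 in each fit that left out a library, from -0.58 without knockout replicate 3 to -0.08 without control replicate 1.

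Foxa3 held the largest share of the FOXA transcripts in all 5 libraries once levels were set per transcript length. On the TPM scale (counts per base of exon, scaled to a total of 1000000 per library), its share of the summed level of the 3 genes was 54.5%, 41.8% and 57.6% in knockout livers, against 63.8% and 55.2% in control livers. The knockout mean was 51.3% ± 8.37 (SD, n = 3) and the control mean 59.5% ± 6.10 (SD, n = 2). Foxa2 held 31.1% ± 5.48 of the sum in knockout livers and 26.4% ± 2.70 in control livers. Foxa1 held 17.6% ± 2.96 in knockout livers and 14.1% ± 3.40 in control livers. The exact two-sided permutation p was 0.4 for each of the 3 shares, and 0.4 after adjustment over them, where 3 libraries against 2 can give no p below 0.2. The summed FOXA level was 51.7, 81.5 and 72.1 TPM in knockout livers, against 85.9 and 58.6 TPM in control livers, so the groups overlapped.

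Onecut1 (ENSMUSG00000043013, chromosome 9, 74861921 to 74891781) had the widest spread of the 8 transcripts. It had 10.2, 30.5 and 35.2 CPM in knockout livers (313, 1011 and 1128 counts), against 29.4 and 23.6 CPM in control livers (937 and 697 counts). Knockout replicate 1 lay far below all others, while knockout replicates 2 and 3 lay above both controls. The means were 25.3 ± 13.3 CPM in knockout livers (SD, n = 3) and 26.5 ± 4.11 CPM in control livers (SD, n = 2). The log2 fold change was -0.07 (SE 0.47, edgeR adjusted p 1), and its interval ran from -1.18 to 1.05, or from 0.440-fold to 2.07-fold. Without knockout replicate 1 it was 0.31 (SE 0.17), with an unadjusted edgeR p of 0.120, and without control replicate 1 it was 0.10.

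Onecut2 (ENSMUSG00000045991, chromosome 18, 64340020 to 64400987), its paralogue, did not share this spread. Onecut2 had 97.4, 108 and 113 CPM in knockout livers, against 81.7 and 120 CPM in control livers, so the controls were the extremes. Its log2 fold change was 0.07 (SE 0.18, interval -0.37 to 0.51, edgeR adjusted p 1) and -0.18 without control replicate 1. On the TPM scale Onecut1 stood at 34.1%, 92.2% and 102% of the Onecut2 level in knockout livers, against 117% and 64.2% in control livers. The third paralogue, Onecut3, had 0 counts in every library, which allows up to 3 counts, or 0.101 CPM in the smallest library.

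Cebpa (ENSMUSG00000034957, chromosome 7, 35119293 to 35121928) had 323, 311 and 358 CPM in knockout livers, against 434 and 312 CPM in control livers. The 3 knockout libraries lay close together, and control replicate 1 stood above all others. The means were 331 ± 24.6 CPM in knockout livers (SD, n = 3) and 373 ± 86.5 CPM in control livers (SD, n = 2). The log2 fold change was -0.17 (SE 0.18, interval -0.60 to 0.25, edgeR adjusted p 1), and 0.08 without control replicate 1. The antisense gene Gm45091 overlaps Cebpa and had 22 to 66 counts, against 9212 to 13836 for Cebpa. Since the strand setting of the counting is not given in the sources used here, reads of such pairs cannot be told apart.

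Prox1 (ENSMUSG00000010175, chromosome 1, 190118035 to 190170714) had 148, 103 and 155 CPM in knockout livers, against 129 and 142 CPM in control livers. Knockout replicate 2 was the lowest library, and the other two knockout libraries lay above both controls. The means were nearly the same, 135 ± 28.3 CPM in knockout livers (SD, n = 3) and 135 ± 9.17 CPM in control livers (SD, n = 2). The log2 fold change was 0.0020 (SE 0.20), with an interval from -0.47 to 0.47 and an edgeR adjusted p of 1, and its sign turned with DESeq2 size factors or upper-quartile factors. Its antisense neighbour Prox1os had 256, 196 and 337 counts in knockout livers, against 223 and 176 in control livers. PROX1 is also a marker of lymphatic endothelium. The 6 lymphatic endothelial markers summed to 78.6, 59.4 and 52.9 CPM in knockout livers, against 73.1 and 83.4 CPM in control livers. Most of each sum was Reln, which is also on the stellate list. Reln had 52.8, 39.3 and 34.4 CPM in knockout livers, against 43.5 and 52.0 CPM in control livers. Lyve1 is also on the sinusoidal endothelial list, and Pdpn and Mmrn1 had few counts, 3 to 8 and 7 to 26 per library. All 5 lymphatic endothelial markers that could be tested had log2 fold changes below 0, as had 7879 of all 16441 genes. The part of these markers in the Prox1 level was not tested.

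Foxo1 (ENSMUSG00000044167, chromosome 3, 52268336 to 52353221) had 36.8, 26.3 and 43.1 CPM in knockout livers, against 31.6 and 32.5 CPM in control livers. As for Prox1, knockout replicate 2 was lowest and the other two knockout libraries lay above both controls. The means were 35.4 ± 8.50 CPM in knockout livers (SD, n = 3) and 32.1 ± 0.614 CPM in control livers (SD, n = 2). The log2 fold change was 0.14 (SE 0.20, interval -0.35 to 0.63, edgeR adjusted p 1), and -0.02 without knockout replicate 3.

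**Figure D2:**
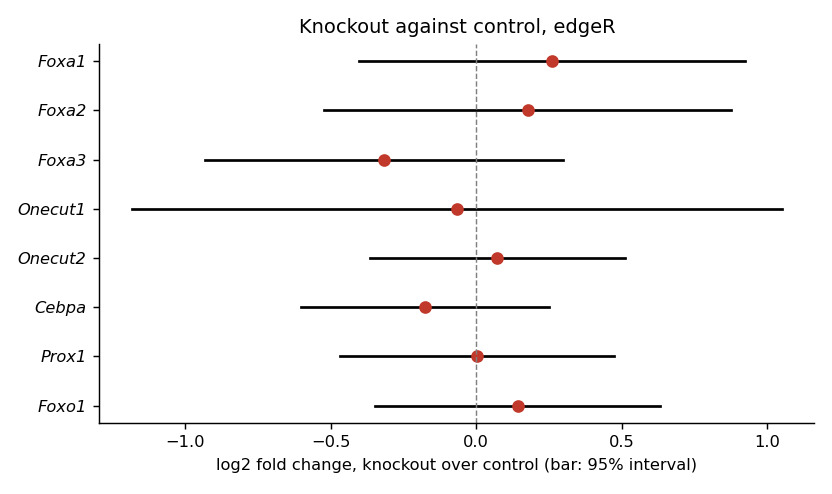
Log2 fold change of knockout over control (points, horizontal axis) for each transcript with its 95% interval from edgeR (bars). Every interval includes 0, and the widest is that of Onecut1, from -1.18 to 1.05.

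Several of the 8 transcripts spread widely among the knockout livers. The highest knockout library stood 3.46-fold above the lowest for Onecut1, 2.15-fold for Foxa2, 1.99-fold for Foxa1 and 1.79-fold for Foxa3. Among the 10105 tested genes with a mean of at least 5 CPM, the median ratio was 1.21, and 1.18% of genes had a ratio at least as large as that of Onecut1. The shares were 3.76% for Foxa2, 4.75% for Foxa1, 6.81% for Foxa3, 9.72% for Foxo1 and 14.3% for Prox1. Cebpa and Onecut2 were steady among the knockout livers, with ratios of 1.15 and 1.16.

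Knockout replicate 1 held the lowest level of 4 of the 8 transcripts, Foxa1, Foxa2, Foxa3 and Onecut1, while 16.4% of all tested genes were lowest there. Knockout replicate 2 held the lowest level of Cebpa, Prox1 and Foxo1, and 20.2% of all tested genes were lowest there. The profiles of Foxa1 and Foxa2 were alike in that replicate 2 stood 0.54 and 0.53 above the mean of the 5 libraries on a log2 scale, and replicate 1 stood at -0.42 and -0.55. Prox1 and Foxo1 ran the other way in replicate 2, at -0.38 and -0.35. These are descriptions of 5 libraries, with no test. Skeletal muscle markers, summed over 6 genes, were at 25.9 CPM in knockout replicate 1 and between 0.664 and 1.28 CPM in every other library, and their part in the low values of that library was not tested.

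**Figure D3:**
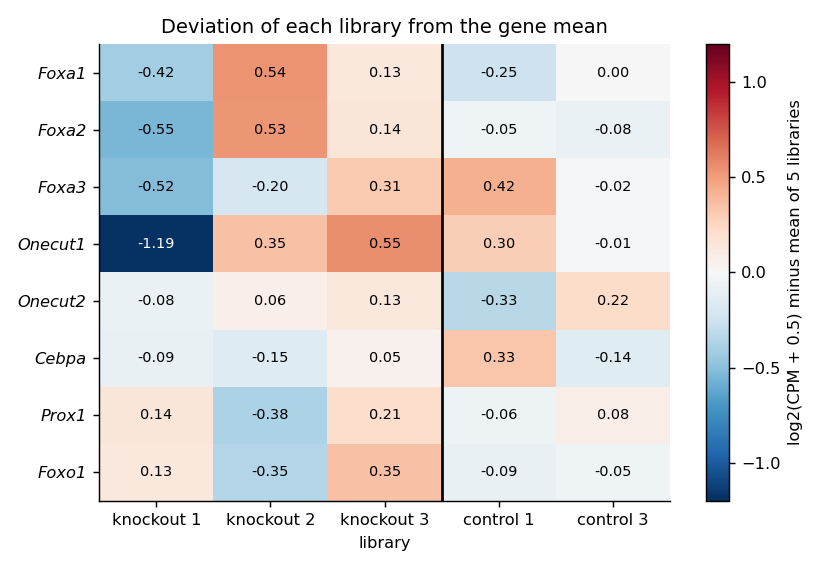
Deviation of each library from the mean of the 5 distinct libraries on the log2(CPM + 0.5) scale, red for above and blue for below, with knockout libraries left of the line and control libraries right of it. The lowest value is Onecut1 in knockout replicate 1, at -1.19, and Foxa1 and Foxa2 share their high value in knockout replicate 2.

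Other genes were compared with each profile by the root-mean-square difference of centred log2 levels over the 5 libraries, searched over 16433 genes. With so many genes and only 5 values per profile, near matches can arise from the search alone. No background distance was computed, and a near match is not evidence of shared regulation. The closest to Foxa1 were Adrb3 (0.069) and Proser3 (0.084), and the closest to Foxa2 were Atxn7l1 (0.049) and Nlrp12 (0.11). The closest to Onecut1 were Gbp11 (0.11), which had 10.03, 25.9 and 38.2 CPM in knockout livers and 27.8 and 22.2 CPM in control livers, and Zbtb7c (0.18). The steadier Cebpa had Zfp960 (0.021) and Bin3 (0.024) as its nearest, Onecut2 had Gpkow (0.024) and Ankrd46 (0.039), Prox1 had Parp16 (0.026) and 3110021N24Rik (0.028), and Foxo1 had Mcrip2 (0.027) and Ndel1 (0.029). The nearest to Foxa3, Gm4342 (0.048) and Gm17022 (0.070), averaged 0.787 and 0.913 CPM and were thus measured with far fewer counts than Foxa3 itself. The same limit holds for 3110021N24Rik, which averaged 0.429 CPM, and for Zbtb7c, at 1.36 CPM. The 0.5 CPM added before taking logs also flattens the profiles of genes this low.

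Levels per transcript length put Cebpa far above the other 7 genes. On the TPM scale Cebpa had 258 ± 12.8 in knockout livers (SD, n = 3) and 291 ± 109.9 in control livers (SD, n = 2), and its mean over the 5 libraries was above 97.4% of the tested genes. It stood above Foxa3, the next gene, in all 5 libraries, with a 7.11-fold ratio of the means and ranges that did not meet. Foxa3 had 34.6 ± 6.68 TPM in knockout and 43.6 ± 15.9 TPM in control livers, and Prox1 33.2 ± 6.50 TPM in knockout and 32.3 ± 2.77 TPM in control livers. Then came Foxa2, with 21.7 ± 8.05 TPM in knockout and 18.8 ± 3.14 TPM in control livers. Onecut2 had 16.3 ± 0.926 TPM in knockout and 14.9 ± 1.73 TPM in control livers. The lowest were Onecut1, Foxa1 and Foxo1, whose means over the 5 libraries were 12.7, 11.2 and 7.998 TPM. Apart from Cebpa, each gene overlapped its neighbour in this order, so the order from Foxa3 down to Foxo1 is not firm at each step.

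**Figure D4:**
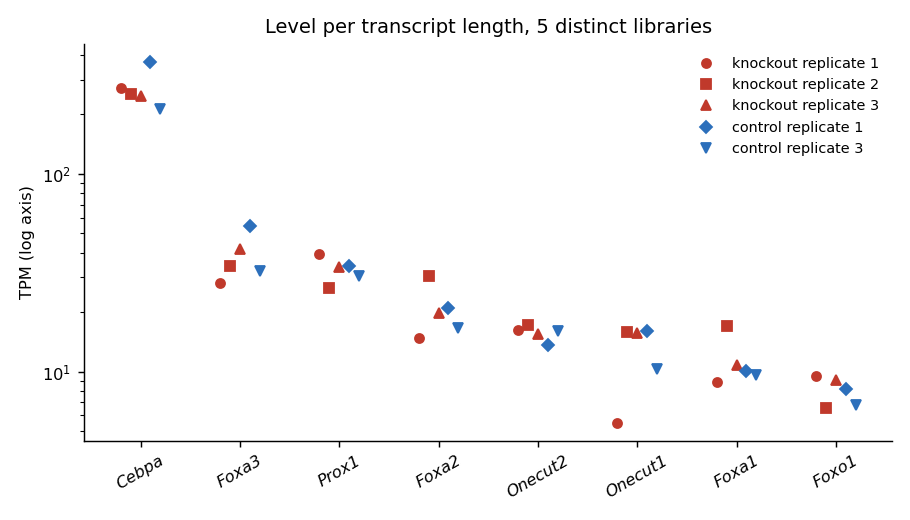
Level of the 8 transcripts in TPM (log axis), ordered by the mean over the 5 distinct libraries, with knockout libraries in red and control libraries in blue. Cebpa lies between 213 and 368 TPM in all libraries, and the ranges of the other neighbours meet.

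Genes related to the 8 factors were described from lists written with earlier results of these data known. Of 15 paralogues, such as other C/EBP and FOXO genes, 13 could be tested, with 6 log2 fold changes above 0 and 7 below and a median of -0.03. The groups were apart in 2 of the 13, beside 16.9% of all genes. The smallest p belonged to Foxp1, a forkhead gene, which had 16.3, 19.2 and 17.7 CPM in knockout livers and 23.1 and 20.3 CPM in control livers. Its log2 fold change was -0.29 (SE 0.12, edgeR adjusted p 1). Foxk1 followed with -0.28 (SE 0.17) and Foxn3 with 0.20 (SE 0.16). Without control replicate 1 these were -0.16 and 0.0088, without control replicate 3 Foxn3 was at 0.41, and without knockout replicate 2 Foxk1 was at -0.44. Of 30 other liver transcription factors, 29 were tested, 17 above 0 and 12 below, with a median of 0.04, and the groups overlapped in all 29. In that list Nr1h4, the bile acid receptor FXR, had 188 ± 41.2 CPM in knockout livers (SD, n = 3) and 140 ± 15.5 CPM in control livers (SD, n = 2), and its log2 fold change was 0.43 (SE 0.21). Nr1i3, the xenobiotic receptor CAR, had one of 0.69 (SE 0.42) and Usf2, a basic helix-loop-helix factor, one of 0.27 (SE 0.19). Without control replicate 1 Nr1i3 was at 0.17 and Usf2 at 0.085, and without control replicate 3 they were at 1.502 and 0.48. Without knockout replicate 3 Nr1h4 was at 0.27 and Usf2 at 0.12.

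Genes that the factors are known to bind or activate gave no call either. Over the paralogue, transcription factor, target and insulin signalling lists, 102 distinct genes besides the 8 were tested, and edgeR, DESeq2 and limma-voom each called 0 of them. At an unadjusted p under 0.05 there were 4 by edgeR (3.92%, beside 3.43% of all genes), 7 by DESeq2 (6.86%, beside 3.03%) and 5 by limma-voom (4.9%, beside 3.29%). With the replicate number as a block in edgeR, a fit that rests on replicates 1 and 3 alone, there were 14 (13.7%, beside 4.69%). After adjustment 0 passed. The lists share genes, among them Igfbp1, G6pc and Pck1, so they are not independent of each other.

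Of 13 tested FOXA targets, 7 were above 0 and 6 below, with a median of 0.14, which was -0.05 without knockout replicate 1. The groups were apart in 5 of the 13, 3 with the knockout higher and 2 lower, beside 16.9% of all genes. Igfbp1, an insulin-regulated binding protein of insulin-like growth factors, had 16.0, 8.45 and 15.3 CPM in knockout livers, against 24.1 and 20.5 CPM in control livers. The knockout libraries all lay below the controls, with a log2 fold change of -0.75 (SE 0.27), an unadjusted edgeR p of 0.0286 and an adjusted p of 1. For Slc10a1, which carries bile acids into hepatocytes, the log2 fold change was 0.37 (SE 0.14), and for Tdo2, the tryptophan dioxygenase, -0.33 (SE 0.16). Shbg, also on the list, had 0 counts in all libraries.

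Of 8 tested ONECUT targets, 7 were above 0 and 1 below, with a median of 0.28, beside 0.0090 for all genes. One of those above 0 was Foxa2 itself. Knockout and control libraries were apart in 4 of the 8 ONECUT targets, beside 16.9% of all genes. Of these, 3 had the knockout higher and 1, Igfbp1, lower. Pfkfb1, the liver enzyme that sets fructose 2,6-bisphosphate, had 40.0, 39.4 and 34.6 CPM in knockout livers, against 29.5 and 30.5 CPM in control livers. All knockout libraries lay above both controls, with a log2 fold change of 0.34 (SE 0.11), an unadjusted edgeR p of 0.0199 and an adjusted p of 1. Slc2a2, the hepatocyte glucose transporter, had 542 ± 30.3 CPM in knockout livers (SD, n = 3) and 407 ± 95.9 CPM in control livers (SD, n = 2), and its log2 fold change was 0.41 (SE 0.18), 0.19 without control replicate 1 and 0.68 without control replicate 3.

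Of 14 C/EBP-alpha targets, 5 were above 0 and 9 below, with a median of -0.02. The groups were apart in 1 of the 14, beside 16.9% of all genes. Ppargc1a, the coactivator PGC-1-alpha, which the FOXO1 list also holds, had 11.7, 11.2 and 9.66 CPM in knockout livers, against 8.67 and 6.54 CPM in control livers. The knockout libraries lay above the controls, with a log2 fold change of 0.51 (SE 0.18), an unadjusted edgeR p of 0.0248 and an adjusted p of 1, and the log2 fold change was 0.33 without control replicate 3. G6pc, the glucose-6-phosphatase of gluconeogenesis, had 726, 372 and 1228 CPM in knockout livers, against 202 and 692 CPM in control livers, and so overlapped widely. Its log2 fold change was 0.79 (SE 0.63), and it was 0.16 without control replicate 1 and 1.94 without control replicate 3. For Ass1, an enzyme of the urea cycle, the log2 fold change was -0.34 (SE 0.28), and it ran from -0.046 without control replicate 1 to -0.58 without control replicate 3, with -0.14 when knockout replicate 2 was left out.

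Of 24 FOXO1 targets, 13 were above 0 and 11 below, with a median of 0.03. The groups were apart in 5 of the 24, 3 with the knockout higher and 2 lower, beside 16.9% of all genes. Igfbp1, below 0, and Ppargc1a, above 0, had the smallest p, followed by Sesn1, a stress-induced sestrin, with -0.32 (SE 0.15), or -0.19 without control replicate 1. Known FOXO1-induced genes therefore had values on both sides of 0. Of 20 genes of insulin signalling upstream of FOXO1, 6 were above 0 and 14 below, with a median of -0.05. The groups were apart in 2 of the 20, both lower, beside 8.72% of all genes apart and lower. Rictor, a subunit of the kinase complex mTORC2, had a log2 fold change of -0.34 (SE 0.16), Pik3r1, a regulatory subunit of PI3-kinase, one of 0.39 (SE 0.20) and Trib3, an AKT inhibitor, one of -0.64 (SE 0.40). Control replicate 1 weighed on all 3, which were at -0.086, 0.13 and 0.020 without it, and at -0.55, 0.71 and -1.09 without control replicate 3. Trib3 was at -0.99 without knockout replicate 2. None of these passed by edgeR.

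**Figure D5:**
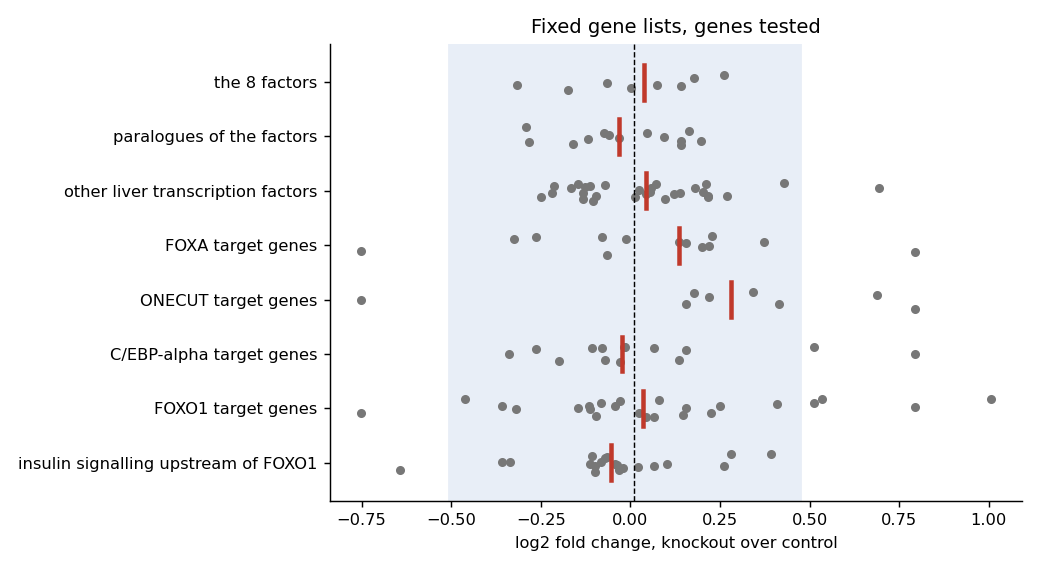
Log2 fold change of knockout over control for each tested gene (grey points) of the 8 factors and of 7 lists, with the list median in red. The shaded band spans the 5th to 95th percentile of all tested genes, -0.51 to 0.48, and the dashed line their median.

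Cell type markers were summed per library beside these values. The 12 hepatocyte markers were all detected, with 4 log2 fold changes above 0, 8 below, and sums between 94649.7 and 106007 CPM in knockout livers and at 122332 and 88634.5 CPM in control livers. All 10 sinusoidal endothelial markers had log2 fold changes below 0, with sums of 215 to 299 CPM in knockout livers, against 291 and 344 CPM in control livers. The 8 cholangiocyte markers, of a cell type in which FOXA and ONECUT factors also act, summed to 50.5, 56.9 and 53.3 CPM in knockout livers, against 37.3 and 58.9 CPM in control livers. Most of this sum was Spp1, and 4 of the 6 tested markers were below 0, among them Sox9 with 2.64, 4.80 and 3.47 CPM in knockout livers, against 8.04 and 4.81 CPM in control livers. The pancreas list summed to 22.9, 24.7 and 33.0 CPM in knockout livers, against 24.3 and 36.7 CPM in control livers, nearly all of it Cela1, with Cela2a at 7 to 15 counts. The other pancreas markers Pnlip, Prss2, Cpa1 and Ins2 had 0 counts in every library, as had the gut factor Cdx2. The gut list as summed did not overlap, with 135, 137 and 75.4 CPM in knockout livers and 60.3 and 70.4 CPM in control livers, and most of it was Fabp2. The T and NK cell list did not overlap either, at 2.41 to 3.02 CPM in knockout livers and 1.95 and 2.34 CPM in control livers. Its largest part was Cd4, with 1.01, 1.90 and 1.59 CPM in knockout livers and 0.722 and 0.948 CPM in control livers. Of the 2 tested markers of this list 1 was above 0 and 1 below. The T and NK sums nearly met, at 2.41 CPM in knockout replicate 1 and 2.34 CPM in control replicate 3, and rest on few counts. Among single genes, 16.9% of all those tested did not overlap, 8.16% with the knockout higher. Log2 fold changes below 0 were also found for 7 of 8 stellate, 7 of 8 macrophage, 5 of 5 erythroid and 4 of 6 B cell markers, and for 1 of 4 adipocyte and 0 of 1 muscle markers tested. The sums of these lists overlapped between the groups. Of all 16441 tested genes, 7879 had log2 fold changes below 0. The globins on the erythroid list were high in control replicate 1 only. Hba-a1 was at 179 CPM there and at 111 CPM in control replicate 3, inside the knockout range of 103 to 151 CPM. Alas2 was higher in both controls than in any knockout library. The part of any of these cell types in the levels of the 8 factors was not tested.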

How the data were processed

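The deposited table holds raw read counts, as whole numbers, for 46983 genes in 6 columns. Reads were trimmed, aligned and counted by the authors, and featureCounts 1.4.6-p4, Subread 1.4.6-p4, Trimmomatic 0.33 and the build mm10/GRCm38 are named in the submitters' processing notes. Strand and multiple-match settings of the counting were not given in the sources used here. Symbols came from GENCODE vM21, which matched 46488 identifiers. Replicates are separate mice per the labels.

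Genes were kept by edgeR's filterByExpr, scaled by TMM and tested with edgeR's quasi-likelihood F test (3 knockout against 2 distinct control libraries), with Benjamini-Hochberg adjustment over 16441 genes and a threshold of 0.05. The test was also run on counts simulated for 3 knockout and 2 control libraries. It called 4% of genes set to differ 1.5-fold, 48% of those at 2-fold and 96% of those at 4-fold. It also called 16 of 16241 genes set not to differ. Changes of 2-fold or less can thus be missed. Errors and 95% intervals of log2 fold changes came from the F statistic. TPM was computed from the counts and the deposited exon lengths over all rows. Profiles used log2(CPM + 0.5). A count of 0 allows up to 3 counts, 0.0891 to 0.101 CPM by library, for counting error only. The tools were edgeR 4.0.16, DESeq2 1.42.0 and limma 3.58.1 in R 4.3.3, and Python 3.11.15 with scipy 1.17.1.

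The 8 factors and all lists were chosen with earlier results of these data known. Genes named from the lists were the 3 with the smallest p in each, and the genes most alike were the 2 nearest per factor. Alternatives were other scaling, no low-count filter, DESeq2, limma-voom, all 6 columns, a replicate block and leaving out each library.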

Additional observations from a re-analysis of the deposited data

How the results depend on the processing

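None of the 8 factors passed the threshold under any of the 13 alternatives run. Over all genes, edgeR and limma-voom called 0 genes higher in each fit. DESeq2 called 6 genes higher and 13 lower. The count of lower genes was 3 without a low-count filter, and it ran from 1 to 6 when libraries were left out, with 6 without control replicate 3, which, like the fit without control replicate 1, assumes that the lone control library varies like the knockout group. The replicate numbers were shared by only 2 pairs of distinct libraries. Deviations from the group means correlated at 0.06 and 0.15 within these pairs over 16441 genes. With 2 distinct control libraries, the control deviations mirror each other, so these correlations cannot decide whether same-numbered libraries belong together. With the replicate block 0 genes were called lower. Mtdh was still at -4.28 in that fit, but its edgeR adjusted p of 0.0517 missed the threshold. Foxa1 and Foxa2 turned to -0.023 and -0.14 with the block. Knockout replicate 2 has no distinct control of the same number, so the block fit draws the difference from replicates 1 and 3 alone. Without a block and without knockout replicate 2, Foxa1 and Foxa2 were at -0.0033 and -0.10. Leaving out 1 library at a time moved Foxa1 between -0.0033 and 0.48, Foxa2 between -0.10 and 0.42, Onecut1 between -0.38 and 0.31, Onecut2 between -0.18 and 0.38, Cebpa between -0.39 and 0.079, Prox1 between -0.11 and 0.16, Foxo1 between -0.025 and 0.32, and Trib3 between -1.09 and 0.020. Prox1 was at -0.00037 with DESeq2 size factors in edgeR, -0.022 with upper-quartile factors, -0.00038 in DESeq2 and -0.019 in limma-voom. The FOXA target median ran from -0.047 to 0.16 when libraries were left out. Beyond the layout of the replicate block, the causes of these changes were not tested. With 2 distinct control libraries, the median half-width of the 95% interval was 0.46 on the log2 scale over all genes and 1.12 for Onecut1.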
